A study of Mus musculus with 9 samples.

Results

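Myl4 and Myl7 encode the myosin light chains of the atrium, and they were examined together with Stard10, Dkk3, Scd1 and Clu in RNA from mouse ventricle. The 6 genes were chosen from earlier results on these same arrays, because Myl4 and Myl7 varied strongly within groups and were near background in dnPI3K, and the others were listed as varying with them. They are represented by 10 probe sets (short sets of oligonucleotides for 1 transcript), of 10855 probe sets that carry a single gene symbol for 8252 genes. All 10 lay above the intensity floor (35.3 units, the 20th percentile of all values) on at least 3 arrays and were tested. The values that chose the genes are given as a description. Where such values passed a threshold in a fit over all probe sets, nothing is read from it.

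RNA of ventricle only, from 9 mice, was hybridised to 9 one-colour arrays, 3 animals per group and 1 array per animal. The caPI3K mice were transgenic for constitutively active phosphoinositide 3-kinase (PI3K), and the labels give their hearts as enlarged by 20%. The dnPI3K mice were transgenic for dominant-negative forms of the enzyme, and their hearts are given as reduced by 17%. NTG mice carried no transgene and were the controls of both. Strain, age, sex and transgene promoter are not stated. Transgenic lines published under these names use the alpha-myosin heavy chain promoter, which is active in cardiomyocytes of atrium and ventricle. The numbers in the sample titles were read here as animal numbers and grouped into series, which the titles do not state. They fall into a 2800 and a 3100 series, each with caPI3K and NTG mice, while dnPI3K mice have lower numbers of their own.

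Each cardiac myosin head binds an essential and a regulatory light chain. Myl4 is the essential and Myl7 the regulatory chain of atrial muscle, and Myl3 and Myl2 take those places in the ventricle. In the mouse, Myl4 and Myl7 are also made in the early ventricle and become restricted to the atria as the heart matures.

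The 250 bases before the start site are shown for Myl7, Myl4 and Stard10, whose deviations from the group means had the same rank order over the caPI3K and NTG arrays. The sequences are from RefSeq windows on GRCm38.p6, which held 3 of the 6 genes. They are written 5′ to 3′ on the strand of the gene, and capitals mark matches to any of 5 motifs searched on both strands. The windows lie at chr11:5898783-5899032 (minus strand) for Myl7, chr11:104550413-104550662 (plus strand) for Myl4 and chr7:101316836-101317085 (plus strand) for Stard10.
Myl7: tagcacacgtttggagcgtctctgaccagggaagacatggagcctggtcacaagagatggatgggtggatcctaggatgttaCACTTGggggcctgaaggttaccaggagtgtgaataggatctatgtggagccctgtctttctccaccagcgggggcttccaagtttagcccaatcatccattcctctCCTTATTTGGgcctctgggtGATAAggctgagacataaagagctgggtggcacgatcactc
Myl4: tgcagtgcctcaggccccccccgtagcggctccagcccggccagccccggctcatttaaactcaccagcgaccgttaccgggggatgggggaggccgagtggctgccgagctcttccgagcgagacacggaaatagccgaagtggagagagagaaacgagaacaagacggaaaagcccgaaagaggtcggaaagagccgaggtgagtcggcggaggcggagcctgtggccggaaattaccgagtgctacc
Stard10: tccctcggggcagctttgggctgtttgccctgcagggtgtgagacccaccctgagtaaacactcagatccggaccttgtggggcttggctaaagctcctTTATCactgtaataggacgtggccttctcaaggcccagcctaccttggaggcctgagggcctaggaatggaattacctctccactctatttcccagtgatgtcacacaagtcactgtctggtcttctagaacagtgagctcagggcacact

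The Myl7 window holds a CArG box, the site type bound by serum response factor, at 52 to 61 bases before the start. It also holds GATAA, the core bound by GATA factors, at 37 to 41 bases and CANNTG, the E-box, at 163 to 168 bases. Among all 32851 windows of this length, 1.47% hold a CArG box, 22.6% hold GATAA and 66.2% hold CANNTG. Stard10 has 1 match to GATAA, on the opposite strand at 147 to 151 bases. The Myl4 window has no match to any of the 5, and none of the 3 windows holds TATAAA (12.4% of all windows) or the MEF2 box (0.508%). The matches do not overlap each other, and a match describes letters, not binding.

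Array medians lay between 174.8 and 194.0 intensity units. The ventricular chains were bright on every array, with Myl2 at 33102 to 39263 and Myl3 at 31625 to 36642, in a range where quantile normalization holds values close together. The dnPI3K arrays stood apart in control probe sets. The geometric mean of 9 spike-in controls was 1567 to 1984 on dnPI3K arrays and 2607 to 3519 on the other arrays, and the 3′ probe set for 18S ribosomal RNA read 3303 to 8097 against 461.8 to 670.6. Group and animal number series cannot be told apart for dnPI3K. NTG replicate 2 stood apart on the second principal component (13.8% of the variance), at -38.99 against -6.41 to 17.00 for the other arrays.

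Myl4, the atrial essential light chain, was high on 3 arrays, lower on another 3 and near the floor on the dnPI3K arrays. On its brighter probe set (160487_at) the normalized intensity was 498.6, 421.4 and 4304 on caPI3K replicates 1, 2 and 3. On NTG replicates 1, 2 and 3 Myl4 read 6896, 3669 and 222.7, and on dnPI3K replicates 1, 2 and 3 it read 27.9, 49.7 and 36.1. NTG replicates 1 and 2 and caPI3K replicate 3 were the high arrays, and the caPI3K values lay within the range of NTG.

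Myl7, the atrial regulatory light chain, followed the same order. It read 652.8, 525.2 and 5579 on caPI3K replicates 1 to 3, and 7253, 4703 and 315.4 on NTG replicates 1 to 3. On dnPI3K replicates 1 to 3 Myl7 read 36.5, 142.3 and 42.2, so that dnPI3K replicate 2 was the highest of its group for both light chains. From the lowest to the highest of the 6 caPI3K and NTG arrays the level spanned 31-fold for Myl4 and 23-fold for Myl7. In the standard deviation (SD) within groups over these 6 arrays, Myl4 (2.29 on the log2 scale) and Myl7 (2.19) ranked 1 and 2 among 10645 probe sets.

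The dimmer Myl4 probe set (100828_at) showed the same high arrays over a smaller range. It read 457.6, 381.8 and 768.8 on caPI3K, 706.1, 773.8 and 412.1 on NTG, and 200.5, 173.6 and 175.4 on dnPI3K replicates 1 to 3. The dnPI3K arrays lay below all others here too, but dnPI3K replicate 2 was the lowest of them. The span over the caPI3K and NTG arrays was 2.03-fold against 31-fold on the brighter probe set, so the size of the variation in Myl4 depends on the probe set read.

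**Figure D1:**
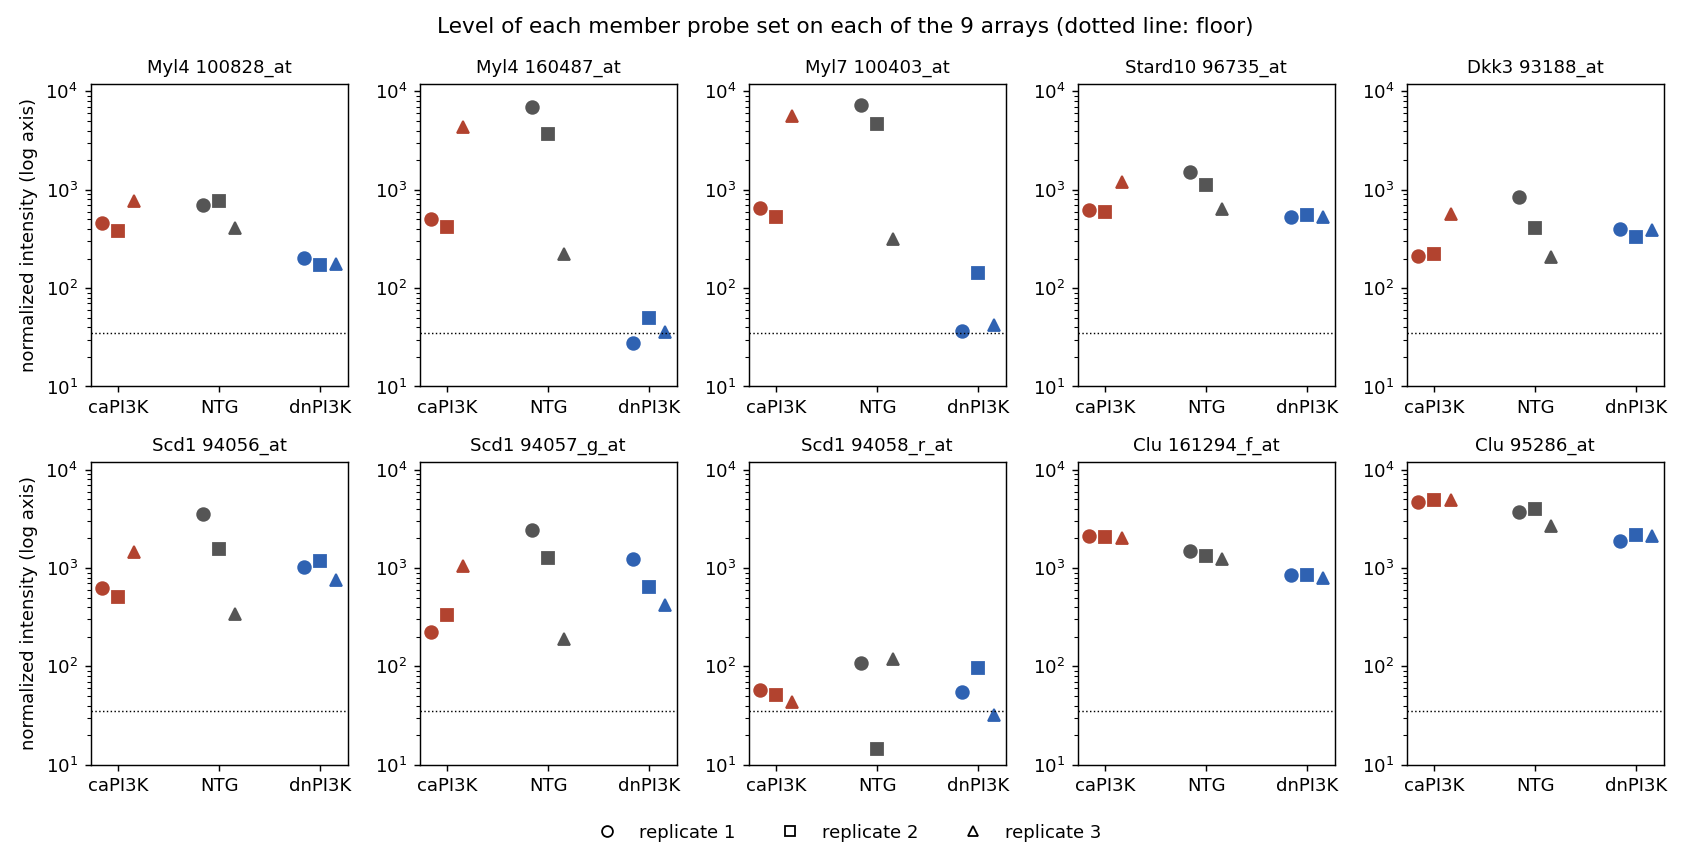
Normalized intensity (log axis) of the 10 probe sets on each of the 9 arrays, by group. Myl4 (160487_at) and Myl7 are high on caPI3K replicate 3 and NTG replicates 1 and 2 and lowest in dnPI3K, where Myl7 on replicate 2 (142.3) lies above the floor of 35.3, whereas the 3 groups do not overlap for Clu.

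Scd1, the stearoyl-CoA desaturase that makes monounsaturated fatty acids, had the widest range of the genes listed beside the light chains. Its brightest probe set (94056_at) read 630.7, 508.8 and 1446 on caPI3K replicates 1 to 3 and 3564, 1551 and 342.3 on NTG replicates 1 to 3. On dnPI3K replicates 1 to 3 Scd1 read 1018, 1182 and 754.5. Among caPI3K and NTG arrays the same 3 arrays were high as for Myl4, but the dnPI3K arrays lay in the middle of the range and not at its lower end.

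A second Scd1 probe set (94057_g_at) read 222.9, 335.1 and 1038 on caPI3K, 2438, 1272 and 189.1 on NTG and 1223, 646.1 and 421.0 on dnPI3K. The same 3 arrays were high among caPI3K and NTG, and dnPI3K replicate 1 lay among them. The remaining one (94058_r_at) was dim, at 14.6 to 119.3 over all 9 arrays, and did not follow, with NTG replicates 1 and 3 highest and NTG replicate 2 lowest. The spans over the caPI3K and NTG arrays were 10.4-fold, 12.9-fold and, for the dim probe set with values raised to the floor, 3.38-fold.

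Dkk3, a secreted protein of the Dickkopf family, read 210.3, 221.8 and 571.7 on caPI3K replicates 1 to 3. On NTG replicates 1 to 3 it read 847.1, 409.7 and 207.1, and on dnPI3K replicates 1 to 3 it read 396.8, 328.8 and 387.9. The same 3 arrays were high among caPI3K and NTG. Every dnPI3K array lay above caPI3K replicates 1 and 2 and NTG replicate 3, although its Myl4 and Myl7 were lower than on any of those.

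Stard10, a phospholipid transfer protein with a START domain, read 619.9, 594.4 and 1192 on caPI3K replicates 1 to 3 and 1525, 1109 and 633.9 on NTG replicates 1 to 3. On dnPI3K it read 528.7, 553.3 and 524.5, below every other array by a small margin. Like the light chains, Stard10 was lowest in dnPI3K, and its 3 high arrays among caPI3K and NTG were theirs, over a narrower range of 2.57-fold across caPI3K and NTG.

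Clu encodes clusterin, a secreted chaperone, and varied less within groups than the other 5 genes. Its brightest probe set (95286_at) read 4684, 4913 and 4932 on caPI3K, 3717, 3980 and 2662 on NTG, and 1871, 2189 and 2110 on dnPI3K replicates 1 to 3. The other one (161294_f_at, a kind of probe set that may match several members of a family) read 2118, 2065 and 2013 on caPI3K, 1476, 1329 and 1244 on NTG and 853.3, 845.2 and 801.7 on dnPI3K. On both probe sets the 3 groups did not overlap, with caPI3K highest and dnPI3K lowest. The SD of Clu within groups over the 6 caPI3K and NTG arrays (0.221 and 0.0916 on the log2 scale) ranked 6680 and 9984 among 10645 probe sets.

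The covariation was described with a score for each array, the mean log2 level of the brightest Myl4 and Myl7 probe sets. It was 9.16, 8.88 and 12.26 on caPI3K, 12.79, 12.02 and 8.05 on NTG, and 5.17, 6.39 and 5.29 on dnPI3K replicates 1 to 3. No caPI3K or NTG array lay between 9.16 and 12.02, so a correlation over these 6 arrays mainly reflects which 3 were high. As a description, deviations from the group mean over the 6 arrays correlated with those of the score at Pearson's r = 0.98 and Spearman's rho = 1 for Stard10, and at 0.96 and 0.94 for Scd1 (94056_at). For Dkk3 they were 0.95 and 0.89, and for Clu (95286_at) 0.80 and 0.71. Without caPI3K replicate 3 and NTG replicate 3, the arrays farthest from the median, and with the group means taken again, r over the remaining 4 was 0.98 for Stard10, 0.995 for Scd1 and 0.91 for Dkk3. It was 0.62 on 94057_g_at of Scd1, -0.12 on the dimmer Myl4 probe set and -0.97 for Clu (95286_at). On the other Clu probe set (161294_f_at) r was 0.54 over 6 arrays and 0.99 over 4. For the dim Scd1 probe set r was -0.45 and 0.97, and for the dimmer Myl4 probe set 0.95 over 6. Without the 2 arrays the sign thus changed for Clu (95286_at), the dimmer Myl4 probe set and the dim Scd1 probe set. The values over 4 arrays come down to 1 difference between 2 arrays in each group and show little more than its sign.

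The genes differed in how far they moved with the score. In a limma fit on all 9 arrays with group as a term, the log2 change per log2 unit of score was 0.56 ± 0.0631 (SE) for Scd1, 0.36 ± 0.0694 for Dkk3, 0.26 ± 0.0342 for Stard10 and 0.081 ± 0.0279 for Clu. The other Scd1 probe sets had slopes of 0.65 ± 0.112 and, for the dim one, -0.093 ± 0.135, the dimmer Myl4 probe set 0.20 ± 0.0493 and the other Clu probe set 0.022 ± 0.0252. In this fit 3 of 10645 probe sets (0.0282%) passed an adjusted p of 0.05, and all 3 were members. They were Myl4 and Myl7, which form the score, and Scd1, whose selection used this covariation, so nothing is read from that count. No probe set outside the 6 genes passed in this limma fit, while 791 of the 10645 had an unadjusted p under 0.05.

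**Figure D2:**
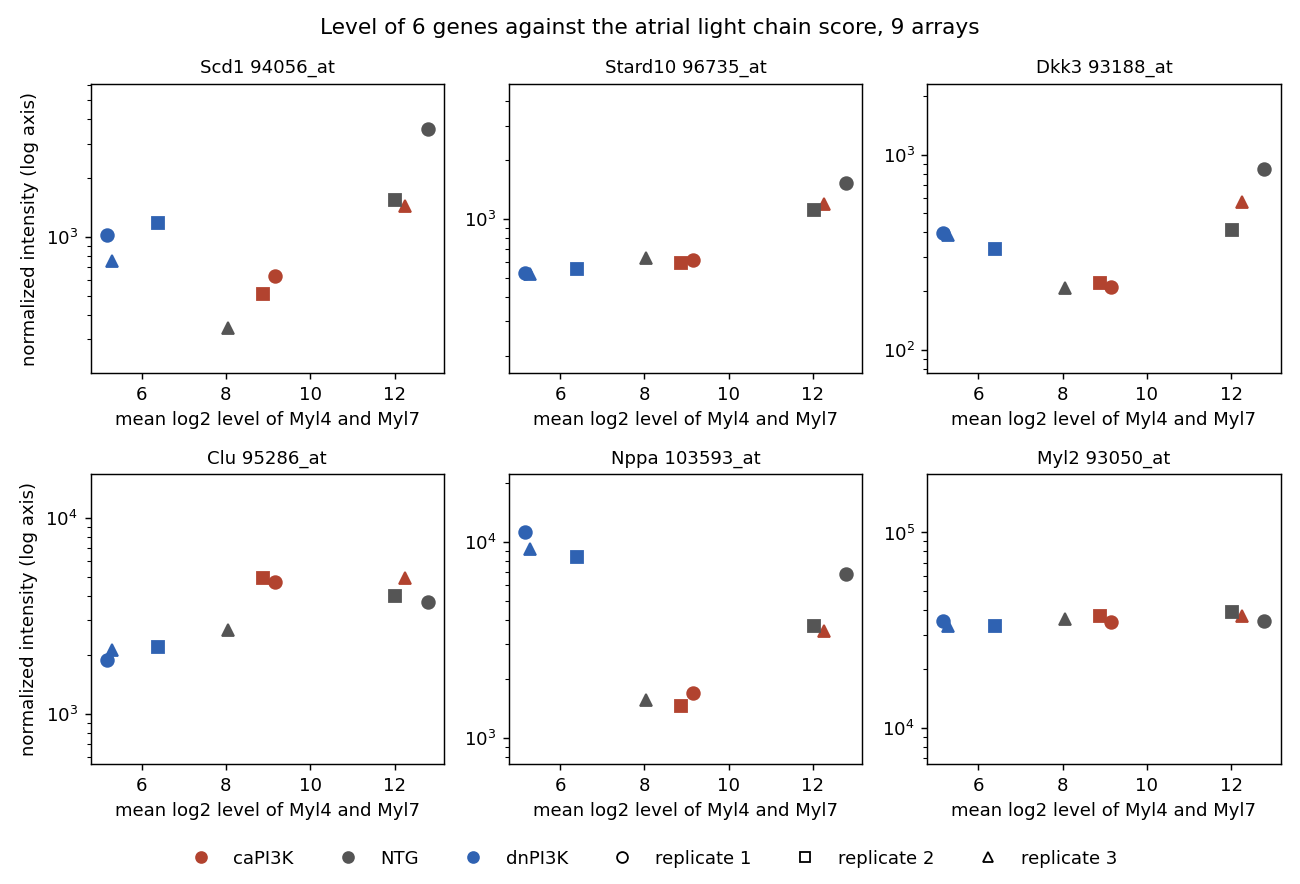
Normalized intensity (log axis) against the atrial light chain score (mean log2 level of Myl4 and Myl7) on the 9 arrays, by group. Scd1, Stard10, Dkk3 and Nppa are higher at high scores among caPI3K and NTG arrays, while Nppa is highest on the dnPI3K arrays, at scores of 5.17 to 6.39.

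The genes outside the 6 whose deviations were most like the score were Syt11 (r = 0.99), Kcnab3 (0.99), Col2a1 (0.99), Foxd1 (0.98), Cplx1 (0.97), Fzd1 (0.97), Prm3 (0.97), Nppa (0.97), Gfpt2 (0.97) and Mapk10 (0.97), each over 6 arrays. Other probe sets of 2 of these genes were less like it, with r = -0.21 for Mapk10 and 0.69 for Prm3. The most opposite were Slc3a1 (-0.98), Cryz (-0.98), Lrp5 (-0.97), Muc1 (-0.97) and Ube2t (-0.97). Of the 1929 genes that spanned at least 1 log2 unit over the 6 arrays and exceeded the floor on 5 or more, 54 (2.80%) had r of 0.9 or more and 29 had -0.9 or less. The 54 include 5 of the 6 genes: Myl4 and Myl7, which form the score, Stard10, Scd1 and Dkk3.

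Nppa encodes atrial natriuretic peptide. It read 1694, 1450 and 3527 on caPI3K, 6840, 3744 and 1553 on NTG and 11231, 8414 and 9192 on dnPI3K replicates 1 to 3. The arrays high in Myl4 and Myl7 were high in Nppa within caPI3K and NTG, but dnPI3K arrays were highest in Nppa and lowest in the light chains. Its slope was 0.36 ± 0.0561 (limma adjusted p = 0.166).

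The stated choice of the genes names no difference between caPI3K and NTG in group means. The genes were listed with earlier results of these arrays known, so such a difference may have played a part, as for Clu. The differences were tested with limma over all probe sets, and for Clu the test may not be independent of the choice. The spread within these groups, however, did choose Myl4 and Myl7, and it enters the error of this contrast. For them, and for genes that share this spread, a missing call says little. None of the 10 probe sets passed an adjusted p of 0.05, beside 0.0845% of all probe sets (9 of 10645). Of the 10, 2 had an unadjusted p under 0.05, beside 734 of all 10645, and both of the 2 were Clu. Its log2 difference, caPI3K minus NTG, was 0.62 ± 0.0953 (SE, limma adjusted p = 0.0533) on 161294_f_at and 0.51 ± 0.137 (limma adjusted p = 0.452) on 95286_at, with all 3 caPI3K arrays above all 3 NTG arrays on each. Over all probe sets, 6.5% had their caPI3K arrays all above NTG. The limma adjusted p of 161294_f_at fell below 0.05 under 4 of 17 alternative settings, with a range of 0.0277 to 0.286, and that of 95286_at ranged from 0.236 to 0.804.

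Differences of the light chains between caPI3K and NTG were smaller than their errors. The errors reflect the spread for which the light chains were chosen. The log2 difference was -0.88 ± 1.15 (limma adjusted p = 0.909) for Myl4 and -0.83 ± 1.16 (adjusted p = 0.925) for Myl7, and -0.25 ± 0.291 (adjusted p = 0.892) on the dimmer Myl4 probe set. Scd1 was at -0.68 ± 0.682 (limma adjusted p = 0.874), Dkk3 at -0.48 ± 0.483 (adjusted p = 0.875) and Stard10 at -0.43 ± 0.317 (adjusted p = 0.828). Without NTG replicate 1, Myl4, Myl7, Scd1 and Dkk3 stood at 0.098, 0.028, 0.087 and 0.036. Without NTG replicate 3 they stood at -2.38, -2.24, -1.61 and -0.98.

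**Figure D3:**
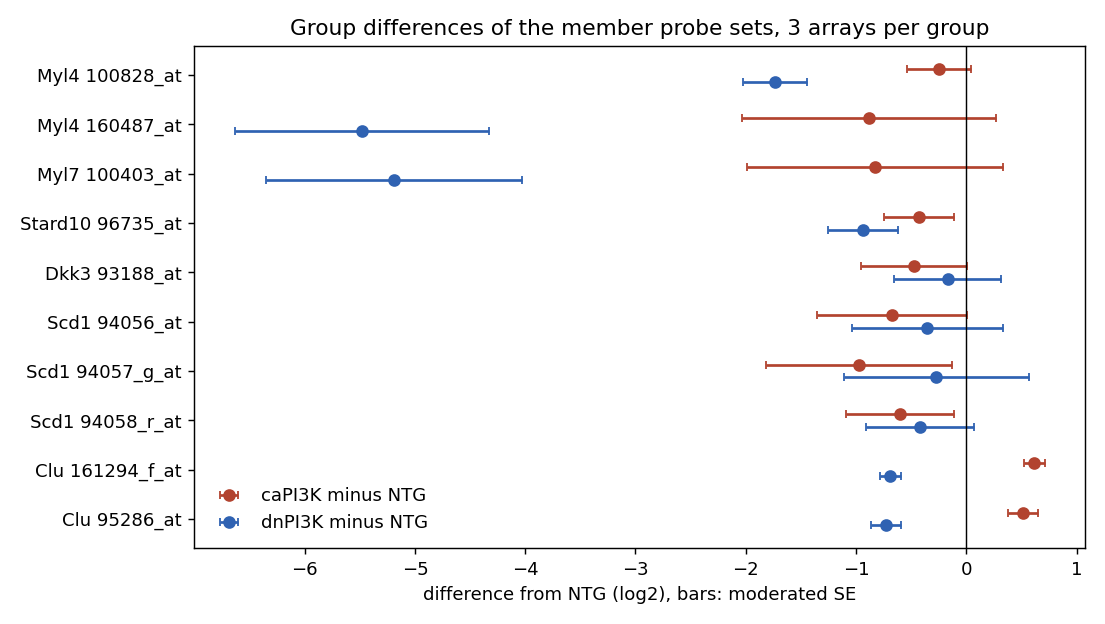
Log2 difference from NTG of each probe set for caPI3K and dnPI3K (points) with the moderated standard error (bars), 3 arrays per group. The error bars of Myl4 (160487_at) and Myl7 exceed 1 log2 unit, and Clu lies above 0 in caPI3K and below 0 in dnPI3K.

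The difference between caPI3K and NTG had opposite signs in the 2 animal number series. In the 4 animals of the 2800 series (2 per group), caPI3K minus NTG was -3.46 for Myl4, -3.32 for Myl7, -2.05 for Scd1, -1.45 for Dkk3 and -1.10 for Stard10 on the log2 scale. In the 2 animals of the 3100 series (1 per group) it was 4.27, 4.14, 2.08, 1.46 and 0.91. On 7 of 10 probe sets caPI3K and NTG did not overlap in the 2800 series and stood in opposite order in the 3100 series. The same held for 17.1% of all probe sets. The 3100 series, with 1 array per group, cannot show overlap. The spread that chose the members includes this pattern, so it was not tested. Clu kept its direction, at 0.32 and 0.89 on 95286_at and 0.58 and 0.69 on 161294_f_at.

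**Figure D4:**
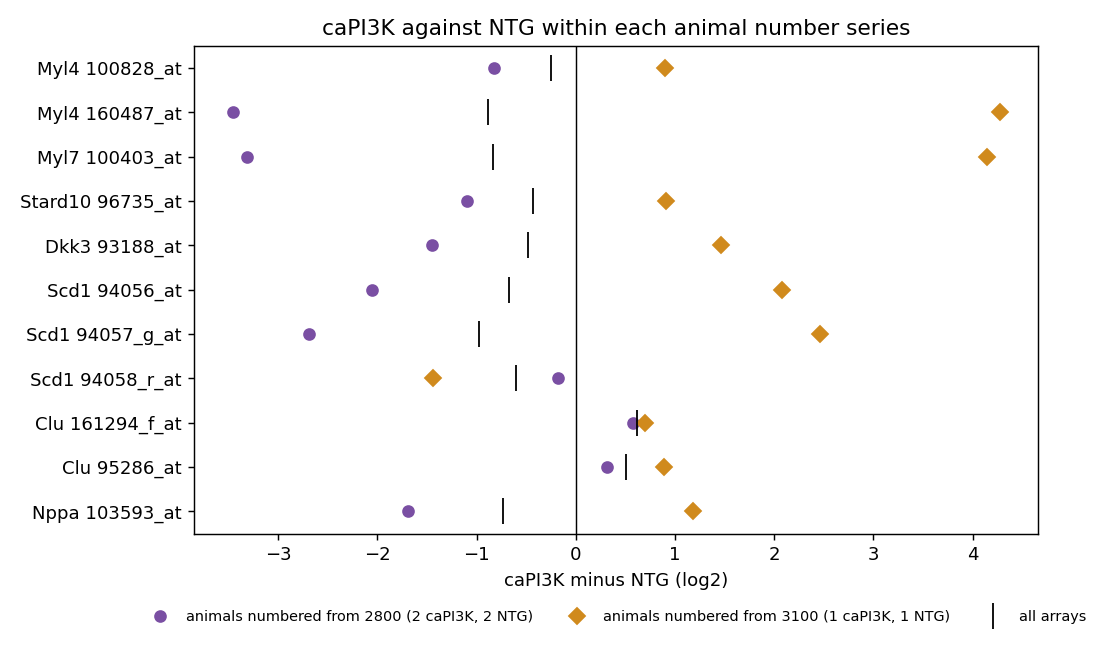
Log2 difference, caPI3K minus NTG, in animals of the 2800 series (2 per group) and the 3100 series (1 per group). Myl4 (160487_at) lies at -3.46 and 4.27 in the 2 series, and Clu lies above 0 in both.

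In dnPI3K the values are given without a test because low levels in this group chose the light chains. The differences farthest from 0, dnPI3K minus NTG, were those of the light chains, at -5.48 ± 1.15 for Myl4 and -5.19 ± 1.16 for Myl7 on the log2 scale. The dimmer Myl4 probe set stood at -1.73 ± 0.291. Because 1 dnPI3K array lay on the floor for Myl4, the size of its difference depends on the floor. The spike-in and 18S values given above also moved with this group, and their part was not tested. RNA from whole ventricle cannot tell fewer cells of a type from less RNA per cell.

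Clu and Stard10 were lower in dnPI3K over a smaller range. The log2 difference was -0.73 ± 0.137 for Clu (95286_at), -0.69 ± 0.0953 on its other probe set and -0.94 ± 0.317 for Stard10. Dkk3 stood at -0.17 ± 0.483 and the 3 Scd1 probe sets at -0.35 ± 0.682, -0.27 ± 0.841 and -0.42 ± 0.491. The dnPI3K arrays lay below all NTG arrays on 6 of the 10 probe sets, beside 9.21% of all probe sets, and 5 of the 10 were past the threshold in the fit, beside 2.18% of all. Nothing is read from these counts. The caPI3K and dnPI3K differences share the same 3 NTG arrays.

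Of 17 further atrial marker genes 13 were measured, and none passed in the limma fit on the light chain score, beside 0.0282% of all probe sets. Of the 13, 3 had an unadjusted p under 0.05 in this fit, beside 554 of all 7484 genes. The median slope of the 13 was 0.04, against -0.0027 over all 7484 genes. Besides Nppa, the calcium channel gene Cacna1g (slope 0.28 ± 0.102, adjusted p = 0.649 in limma) and the potassium channel gene Kcnj5 (0.41 ± 0.172, adjusted p = 0.668) had the smallest p. The connexin gene Gja5 (0.21 ± 0.0974), the amidating enzyme gene Pam (-0.24 ± 0.119), the natriuretic receptor gene Npr3 (0.10 ± 0.0531), the repressor gene Hey1 (-0.053 ± 0.0312) and the ligand gene Bmp10 (0.16 ± 0.128) followed.

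None of these 13 genes passed in dnPI3K against NTG in limma either, with a median log2 difference of -0.0065 against 0.0071 over all genes. Of the 13, 2 had an unadjusted p under 0.05 in this contrast, beside 1117 of all 7484 genes. The summed intensity of the 13 was 3953 to 6049 in caPI3K, 3863 to 9464 in NTG and 11115 to 13978 in dnPI3K. Without Nppa it was 2259 to 2569, 2310 to 2666 and 2701 to 3033. Several of these markers were dim: Sln, sarcolipin of the atrial calcium store, lay on the floor on 5 of 9 arrays, Bmp10 on 4 and Cacna1g on 6. The part of atrial tissue in the levels of Myl4 and Myl7 was not tested.

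Of 12 ventricular markers 6 were measured, and none passed in the limma slope fit (0 had an unadjusted p under 0.05). Slopes were 0.0066 ± 0.0227 for Myl2 and -0.0063 ± 0.025 for Myl3, the ventricular counterparts of Myl7 and Myl4. In a list of other myosin light chain and light chain kinase genes, which includes both, none of 9 passed in limma (0 unadjusted), with Myl1, the fast skeletal essential chain, at 0.096 ± 0.0625, adjusted p = 0.792.

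Relatives of the other members were counted in the same fit. Of 13 measured genes of fatty acid synthesis and desaturation, to which Scd1 belongs, none passed in limma (2 unadjusted). The citrate lyase gene Acly (0.10 ± 0.0286, adjusted p = 0.572) and the fatty acid synthase gene Fasn (0.15 ± 0.0485, adjusted p = 0.601) had the smallest p. None of 4 START domain genes passed in limma (0 unadjusted), with Stard7 at -0.048 ± 0.0288. Of 10 genes of the Dickkopf and Wnt pathway none passed in limma (1 unadjusted), with the co-receptor gene Lrp5 at -0.57 ± 0.0979, adjusted p = 0.289. None of 8 genes grouped with clusterin passed in limma (2 unadjusted), with the lipoprotein gene Apoe at 0.087 ± 0.0315 and the chaperone gene Hspa5 at -0.12 ± 0.0398.

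Scd1 is also abundant in fat cells. None of 11 measured adipocyte genes passed in the limma slope fit (3 unadjusted). Of the 11, 4 had a slope above 0, and the median slope was -0.044. The hormone gene Adipoq, made by fat cells, had a slope of 0.47 ± 0.0942, adjusted p = 0.507 in limma, and read 129.1, 103.5 and 357.7 on caPI3K and 683.2, 205.7 and 111.8 on NTG replicates 1 to 3. Retn, another hormone of fat cells, had 0.45 ± 0.135, adjusted p = 0.572, and lay on the floor on 4 of 9 arrays. The glucose transporter gene Slc2a4, also made by cardiomyocytes, had -0.088 ± 0.0268, adjusted p = 0.572, and -0.00037 ± 0.123 on a dimmer probe set. The lipoprotein lipase gene Lpl had -0.057 ± 0.03, and -0.103 ± 0.0402 on a dimmer probe set. The summed intensity of the list was 19332 to 21914 in caPI3K, 20746 to 28752 in NTG and 22121 to 24638 in dnPI3K. The arrays high in Adipoq among caPI3K and NTG were those high in Scd1, and the part of fat cells in the Scd1 levels was not tested.

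**Figure D5:**
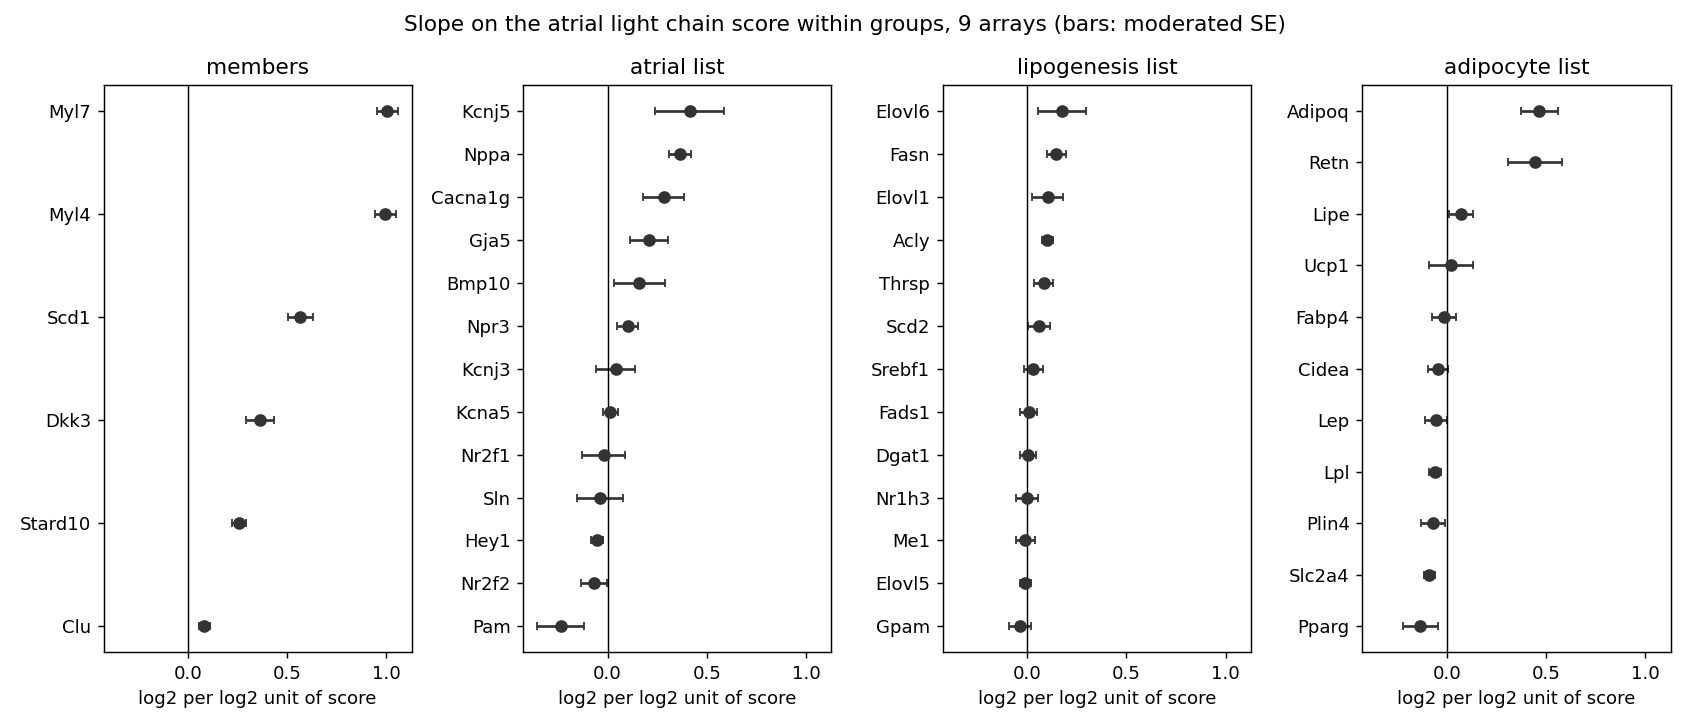
Slope on the atrial light chain score within groups (log2 change per log2 unit of score, points) with the moderated standard error (bars) over 9 arrays, for the 6 genes and for listed genes. Scd1 (94056_at), Dkk3 and Stard10 lie above 0 and Clu near it.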

How the data were processed

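The deposited values are intensities on a linear scale, 1 for each of 12488 probe sets on each array. Per the labels the scanner's photomultiplier was set to 10%, and the sources used here do not say how the authors computed the intensity. After trimming 2% of values at both ends the mean was 500.4 on all arrays, so a common scaling had been applied. Symbols come from the platform annotation, which gives 1 symbol to 10855 probe sets, several to 396 and does not list 1237.

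Values were quantile normalized, raised to a floor (the 20th percentile, 35.3) and log2 transformed. Probe sets exceeding the floor on 3 or more of 9 arrays were tested (10645, without 66 array controls). Printed levels are normalized intensities before the floor. Limma 3.58.1 in R 4.3.3 fitted group over all 9 arrays with an intensity trend, and a second fit added the light chain score as its deviation from the group mean. P-values are two-sided and adjusted by Benjamini-Hochberg over all probe sets, with a threshold of 0.05. Both fits were tested on simulated data. Replicates are separate animals, and 3 arrays per group limit the precision.

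Lists use the brightest probe set of each gene. By rule the text names all member probe sets, Myl2, Myl3, Nppa, and the 10 most and 5 least like genes. The rule also allowed up to 8 atrial genes and up to 4 genes of other lists with the smallest p in each fit. Only some of these are named, and for several lists none. The members, the 18 lists and the tests were chosen with earlier results of these data known. Alternatives were the deposited values, median scaling, floors at the 5th and 40th percentile, no filter, no trend, only the groups compared, the animal series as a block, and each array left out.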

Additional observations from a re-analysis of the deposited data

Results flagged for a closer look

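The difference between caPI3K and NTG had opposite signs in the 2800 and 3100 animal series, with no overlap of the groups within the 2800 series. On the log2 scale the 3100 value exceeded the 2800 value by 7.73 for Myl4 (160487_at), 7.46 for Myl7, 5.14 for Scd1 (94057_g_at), 4.13 for Scd1 (94056_at), 2.91 for Dkk3, 2.87 for Nppa, 2.01 for Stard10 and 1.72 for Myl4 (100828_at). The difference was not tested. The 3100 series holds 1 array per group, so overlap was not possible there, and 17.1% of all probe sets showed a separation of this kind. The dim Scd1 probe set 94058_r_at and both Clu probe sets did not.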

How the results depend on the processing

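No paired analysis was possible because each animal has a number of its own. In caPI3K against NTG 9 probe sets passed (5 higher). The count was 1 without the filter on dim probe sets and 1 without the intensity trend. In limma it was 0 with only the groups compared (660 with an unadjusted p under 0.05) and 0 with the animal series as a block (673). With 1 array left out it was 0 to 20, and 20 came without NTG replicate 1. In dnPI3K against NTG 232 passed (108 higher), with 138 without the filter, 94 without the trend and 94 with only the groups compared. With 1 array left out it was 82 to 235, and 82 came without dnPI3K replicate 2. With median scaling 9 of 13 (caPI3K) and 135 of 228 (dnPI3K) were higher. In the slope fit 3 passed, 5 with the floor at the 40th percentile and 2 to 5 with 1 array left out. All 3 in the main fit had a slope above 0. Without caPI3K replicate 3 or NTG replicate 2, 4 of 5 had a slope above 0, and without NTG replicate 1, 3 of 4.

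For the members, caPI3K minus NTG kept its sign under all alternatives run except without NTG replicate 1. There it was 0.028 for Myl7, 0.098 for Myl4 (160487_at), 0.036 for Dkk3 and 0.087 for Scd1 (94056_at). With 1 array left out these ranged over -2.24 to 0.028, -2.38 to 0.098, -0.98 to 0.036 and -1.61 to 0.087. Clu 161294_f_at passed in limma with the deposited values (0.64, adjusted p = 0.0461), median scaling (0.73, adjusted p = 0.0277), the floor at the 40th percentile (0.62, adjusted p = 0.0479) and without NTG replicate 1 (0.69, adjusted p = 0.042). The causes were not tested. Signals near the floor limit what can be said of Myl4 and Myl7 in dnPI3K.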

Other observations

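No gene of the 18 lists passed in the slope fit in limma, and the median slopes of the lists lay between -0.044 and 0.075. Of 5 mesothelial genes, 2 had an unadjusted p under 0.05, Krt18 (slope 0.27 ± 0.0869) and Upk3b (0.16 ± 0.067), and 3 had a slope above 0. There was 1 such gene each in the nodal, endothelial, macrophage, fibroblast and skeletal muscle lists. The smooth muscle, erythroid, nerve and epithelial lists had 0. In dnPI3K against NTG, where 2.18% of all probe sets passed, several listed genes were past the threshold. The spike-in and 18S values and the animal number series also moved with this group, and their part was not tested. The brightest probe set of beta-myosin heavy chain (Myh7) rose (log2 difference 1.42 ± 0.134, limma adjusted p = 0.000574). It also rose in caPI3K (1.03 ± 0.134, limma adjusted p = 0.0255). The caPI3K call held under 7 of 17 alternatives, with a limma adjusted p of 0.00171 to 0.286. It was lost with only the groups compared, with the animal series as a block, without the filter or the trend, and without caPI3K replicate 2 or 3, dnPI3K replicate 2 or 3, or NTG replicate 2 or 3. A second Myh7 probe set gave 2.004 (adjusted p = 0.0443) and 0.66 (adjusted p = 0.814) in limma. On NTG replicates 1 to 3 the brightest Myh7 probe set read 11309, 11146 and 11187, and the second read 46.4, 82.2 and 78.9. Both are of the kind that may match several members of a family. The part of other family members in these Myh7 signals was not tested. The LIM domain gene Fhl2 fell by 0.57 (± 0.0831, adjusted p = 0.00723) in limma. Frzb, a secreted Wnt antagonist, rose (1.75 ± 0.337, limma adjusted p = 0.0275), and so did smooth muscle actin Acta2 (0.997 ± 0.175, adjusted p = 0.0176). Myl1 fell by 2.02 (± 0.249, adjusted p = 0.00325) in limma, Casq1, the fast skeletal calsequestrin, fell by 1.84 (± 0.219, adjusted p = 0.00272), and the collagen receptor gene Ddr2 fell by 1.06 (± 0.166, adjusted p = 0.00947). Over 16 alternatives, added after seeing the data, the dnPI3K calls of Myh7, Myl1 and Casq1 held under all 16, those of Ddr2 and Fhl2 under 15, that of Acta2 under 11 and that of Frzb under 8. Acta2 was lost without the filter or the trend, and without dnPI3K replicate 1 or 3 or NTG replicate 2. Frzb was lost without the filter, with only the groups compared and with the floor at the 40th percentile. It was also lost without dnPI3K replicate 1 or 2 or any 1 NTG array. With the floor at the 40th percentile Frzb stood at 0.39.

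In the macrophage, erythroid, nerve, endothelial, mesothelial, nodal and epithelial lists no gene passed in dnPI3K against NTG in limma. In the same order, 0 of 9, 0 of 4, 2 of 8, 0 of 11, 1 of 5, 0 of 5 and 1 of 6 genes had an unadjusted p under 0.05. Over all 7484 genes it was 1117.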
